A study of Mus musculus with 2 samples.

Results

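Sodium, calcium, potassium and pacemaker channel genes were read from the hearts of mouse embryos of strain B6NCrl at embryonic day 10.5. The set held 39 named genes of 43346 mouse genes in the tables, with 27 genes for pore-forming subunits and 12 for auxiliary subunits, and its members were found in the tables by gene symbol. The study had 1 group of 2 total RNA libraries, both of healthy embryos of mixed sex. Replicate 2 pooled 51 embryos and replicate 1 pooled 69 embryos, and each library started from 10 ng of RNA longer than 200 nt with ERCC spike-ins. No condition was compared, so every difference below is a difference between these 2 pools and carries no p-value. The libraries held 41070978 estimated reads in replicate 2 and 45205713 in replicate 1, and the 39 genes took 37008.9 of them in replicate 2 and 29103.5 in replicate 1. In bulk tissue, fewer cells of a type and less RNA per cell cannot be told apart.

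An ion channel is a protein pore that lets chosen ions cross the cell membrane when voltage, a ligand or stretch opens it. In heart muscle, inward sodium and calcium currents start and hold the action potential, potassium currents end it and set the resting voltage, and the hyperpolarisation-activated pacemaker current drives spontaneous beating. Pore-forming subunits build the channel itself, while auxiliary subunits bind to it and change its gating, its drug response or its transport to the membrane.

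The pore of a potassium channel carries a short filter signature, a run of residues that ends in glycine, tyrosine or phenylalanine, glycine. It was searched in frame, on the coding strand, in the longest GENCODE M21 coding sequence of each gene, as threonine, serine or cysteine, then isoleucine, valine, threonine, serine or leucine, then that ending. All 16 potassium and pacemaker pore genes held it, none of the 12 auxiliary genes and none of the 11 other pore genes did, and 264 of 21866 protein-coding genes (1.21%) held it. Of these 264 genes, 82 had a Kcn, Hcn or Cng symbol, with auxiliary Kcn names left out. The match is therefore not particular to these channels. A match is a description of these letters and not a shown function. The windows below are coding DNA of GRCm38, from genes whose levels the results turn on, and the capitals mark the 15 signature bases.
Kcnj5 (chr9:32322553-32322579, minus strand): gaaacaACCATTGGGTATGGCttcaga
Kcnh2 (chr5:24325549-24325575, minus strand): ctcaccAGCGTGGGCTTTGGCaatgtc
Kcnk3 (chr5:30622196-30622222, plus strand): ctcaccACCATCGGCTTCGGCgactat
Kcna5 (chr6:126533739-126533765, minus strand): atgaccACTGTAGGCTACGGGgacatg
Kcnj11 (chr7:46099490-46099516, minus strand): caggtgACCATTGGTTTCGGCgggcgc
Kcnj8 (chr6:142566442-142566468, minus strand): caagtgACCATTGGGTTTGGAgggaga
Hcn4 (chr9:58855579-58855605, plus strand): atgctgTGCATTGGGTATGGAcggcag
Kcnk3 codes for a channel with more than 1 pore loop per subunit, and its second match is the one shown. Hcn4, a pacemaker pore, differs from the potassium pores shown in starting the signature with a cysteine codon. The Hcn4 match shown starts at residue 478, and a second match, which starts with threonine, lies at residue 905.

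Of the 39 genes, 28 reached 1 TPM in both pools (TPM is a length-scaled relative abundance, so levels of different genes can be compared). Kcnj8 and Kcnd2 reached it in 1 pool only, 8 genes stayed below it in both, and Hcn2 was not detected. Pore genes were detected in 19 of 27 cases and auxiliary genes in 9 of 12. By class, all 5 calcium pore genes and all 3 TRP and mechanosensitive genes were detected, along with 10 of 13 potassium pore genes and 1 of 3 pacemaker genes. None of the 3 sodium pore genes in the set was. Of 110 other protein-coding genes of these channel families, 22 reached 1 TPM in both pools. The 39 genes were chosen with earlier results of these data known. The share over all mouse genes is not given here, so these counts only describe the genes chosen.

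**Figure D1:**
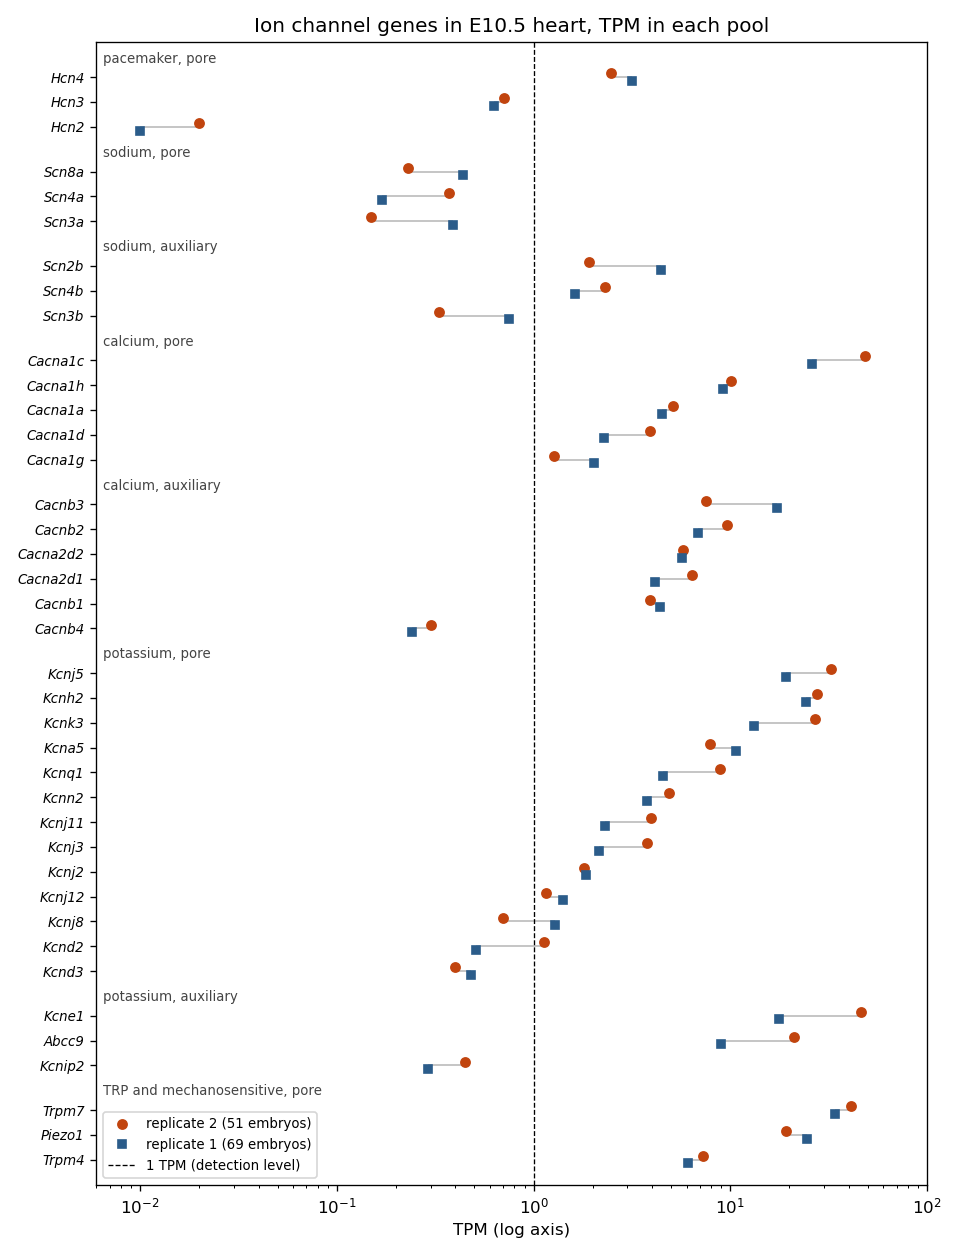
TPM of each of the 39 channel genes (log axis) in replicate 2 (circles, 51 embryos) and replicate 1 (squares, 69 embryos), grouped by current class and subunit, with a dashed line at 1 TPM. Each grey line joins the 2 pools and is not an error bar; Trpm7, Cacna1c and Kcne1 have the highest mean TPM, and all 3 sodium pore genes lie left of the line.

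A class share of TPM depends on how many of its genes were listed. The set held 16 potassium, 11 calcium, 6 sodium, 3 pacemaker and 3 TRP and mechanosensitive genes. Potassium genes, 16 of the 39, held the largest share of the summed TPM of the set, 51.6% in replicate 2 and 41.4% in replicate 1 (mean 46.5% ± 7.19, SD, n = 2). Calcium genes held 27.7% in replicate 2 and 30.5% in replicate 1, and TRP and mechanosensitive genes held 18.4% in replicate 2 and 23.8% in replicate 1. Sodium genes held 1.44% in replicate 2 and 2.88% in replicate 1, and pacemaker genes 0.874% in replicate 2 and 1.40% in replicate 1. The order of the 5 classes was the same in both pools. Pore genes held 71.2% of the summed TPM in replicate 2 and 73.3% in replicate 1 (72.3% ± 1.5, SD, n = 2). Pores were 27 of the 39 genes listed, so this share was close to their share of the list. With coding transcripts only, the mean pore share was 65.7%. The split ran the other way inside the sodium class, where the pores held 14.2% in replicate 2 and 12.8% in replicate 1. Inside the calcium class the pores held 67.2% in replicate 2 and 53.3% in replicate 1, but 48.9% in replicate 2 and 32.5% in replicate 1 with coding transcripts only.

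Among the pacemaker genes, Hcn4, the main pacemaker channel of the sinus node, had 2.48 TPM in replicate 2 and 3.17 TPM in replicate 1. Hcn3, another pore of the same family, had 0.71 TPM in replicate 2 and 0.63 TPM in replicate 1. Hcn2 had 0.02 TPM on 2 estimated reads in replicate 2 and 0.01 TPM on 1 in replicate 1. The exact 95% Poisson interval of the Hcn2 reads was 0.242 to 7.22 in replicate 2 and 0.0253 to 5.57 in replicate 1, counting error only. Hcn4 thus lay above Hcn3 in both pools without overlap (mean log2 TPM ratio 2.07 ± 0.37, SD, n = 2). Exons of Hcn3 overlap those of Pklr on the opposite strand, and Pklr held 714 estimated reads in replicate 2 and 920 in replicate 1, against 45.3 for Hcn3 in replicate 2 and 52.1 in replicate 1. No source used here states whether the counting was stranded, which leaves the Hcn3 value uncertain.

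The sodium pores in the set were near the floor of the assay. Scn4a, the skeletal muscle sodium channel, had 0.37 TPM in replicate 2 and 0.17 TPM in replicate 1, of which coding transcripts held 0.16 TPM in replicate 2 and 0.08 TPM in replicate 1. Scn3a, a neuronal channel of embryonic stages, had 0.15 TPM in replicate 2 and 0.39 TPM in replicate 1. Scn8a, another neuronal channel, had 0.23 TPM in replicate 2 and 0.44 TPM in replicate 1. Their ranges over the pools overlapped, so no order among them held. Skeletal muscle markers summed to 2.39 TPM over 7 genes in replicate 2 and 7.25 TPM in replicate 1, and neural markers to 24.0 TPM over 12 genes in replicate 2 and 53.9 TPM in replicate 1. The class level describes the 6 sodium genes chosen.

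Of the sodium beta subunits, which are single-pass membrane proteins that modify gating and cell adhesion, Scn2b had 1.91 TPM in replicate 2 and 4.43 TPM in replicate 1. Scn4b had 2.31 TPM in replicate 2 and 1.63 TPM in replicate 1. Scn3b had 0.33 TPM in replicate 2 and 0.75 TPM in replicate 1. Scn2b and Scn4b changed places between the pools, while Scn3b stayed below Scn2b in both. Scn2b (chr9:45117782-45130070, GRCm38) and Scn4b are neighbours with a gap of 8325 bp and no coding gene between them, and their log2 ratios of scaled counts, replicate 2 over replicate 1, were -1.11 for Scn2b and 0.60 for Scn4b.

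Cacna1c codes for the main L-type calcium pore of heart muscle and had the second highest mean TPM of the set, 48.16 TPM in replicate 2 and 26.01 TPM in replicate 1. Cacna1d, the L-type pore known from sinus node cells, had 3.93 TPM in replicate 2 and 2.29 TPM in replicate 1. Cacna1h, a T-type pore that opens at low voltage, had 10.03 TPM in replicate 2 and 9.22 TPM in replicate 1. Cacna1g, the other T-type pore of the set, had 1.27 TPM in replicate 2 and 2.03 TPM in replicate 1. Cacna1a, best known as a presynaptic channel of neurons, had 5.14 TPM in replicate 2 and 4.52 TPM in replicate 1. Cacna1h exceeded Cacna1g in both pools by 2.58 ± 0.56 on the log2 TPM scale (SD, n = 2).

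Part of this calcium signal rested on short noncoding transcript models. For Cacna1c, the 954-nt processed transcript Cacna1c-218 took 74.99% of the gene's TPM in replicate 2 and 75.40% in replicate 1. It did so on 847 estimated reads in replicate 2 and 510 in replicate 1, while the 13162-nt coding transcript Cacna1c-207 had 1523 in replicate 2 and 891 in replicate 1. Of the bases of Cacna1c-218, 745 of 954 lie in exons of coding transcripts, and how reads were split between the models is an estimate. Counting coding transcripts only, Cacna1c had 8.61 TPM in replicate 2 and 4.07 TPM in replicate 1. Its excess over Cacna1d then shrank to a log2 TPM ratio of 0.98 ± 0.21, against 3.56 ± 0.08 with all transcripts (SD, n = 2). Cacna1h, not Cacna1c, was then the highest calcium pore in each pool, with coding TPM of 9.24 (replicate 2) and 7.18 (replicate 1). The ranges of Cacna1h and Cacna1c over the pools overlapped. For Cacna1a, the retained-intron model Cacna1a-207 led by TPM and the coding Cacna1a-201 by estimated reads, and coding transcripts held 0.46 TPM in replicate 2 and 0.48 TPM in replicate 1. Cacna1g kept 0.38 TPM in coding transcripts in replicate 2 and 0.64 TPM in replicate 1.

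The cytoplasmic beta subunits bring calcium pores to the membrane, and Cacnb2 is known as the main one of adult heart. Cacnb2 had 9.58 TPM in replicate 2 and 6.89 TPM in replicate 1. Cacnb3 had 7.5 TPM in replicate 2 and 17.31 TPM in replicate 1. Cacnb1 had 3.92 TPM in replicate 2 and 4.41 TPM in replicate 1, and Cacnb4 had 0.30 TPM in replicate 2 and 0.24 TPM in replicate 1. By gene TPM, Cacnb2 exceeded Cacnb1 in both pools, and Cacnb2 and Cacnb3 overlapped. By coding transcripts the order was another one. The 3457-nt retained-intron model Cacnb2-204 took 467 of 757 estimated reads in replicate 2 and 305 of 561 in replicate 1, and 380 of its 3457 bases lie in exons of coding transcripts. Coding transcripts of Cacnb2 held 0.97 TPM in replicate 2 and 0.60 TPM in replicate 1, below Cacnb1 with 3.70 TPM in replicate 2 and 3.94 TPM in replicate 1. On the log2 TPM scale, the mean ratio of Cacnb2 over Cacnb1 was 0.97 with all transcripts and -2.32 with coding transcripts only.

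The alpha-2-delta subunits, extracellular proteins that raise the surface density of calcium channels, did not differ from each other in TPM beyond the spread of the pools. Cacna2d1 had 6.36 TPM in replicate 2 and 4.15 TPM in replicate 1, and Cacna2d2 had 5.72 TPM in replicate 2 and 5.68 TPM in replicate 1. By estimated reads, not divided by length, Cacna2d1 exceeded Cacna2d2 in both pools (mean log2 ratio 0.37 ± 0.27, SD, n = 2).

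**Figure D2:**
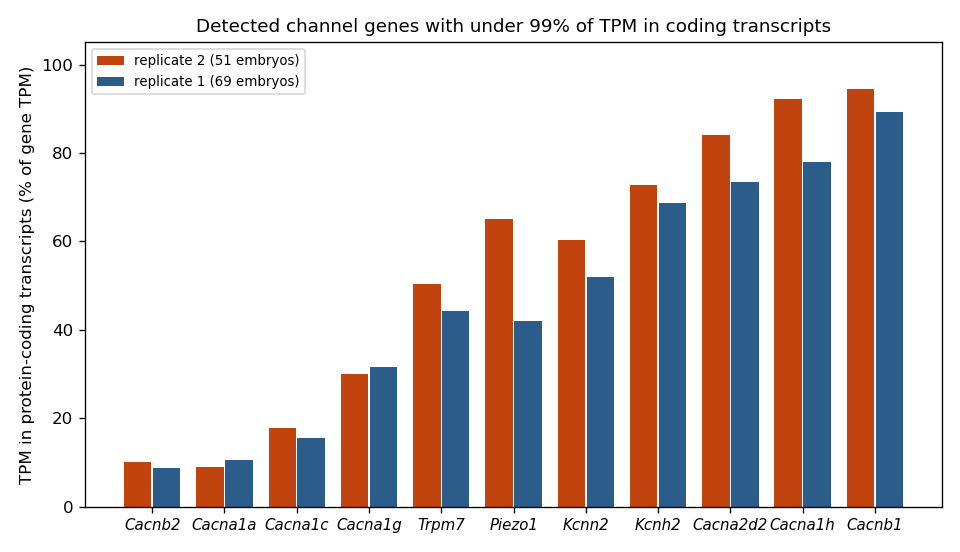
Percent of a gene's TPM in transcripts typed as protein-coding, in replicate 2 (left bar) and replicate 1 (right bar), for the 11 detected channel genes where it was under 99% in a pool. Cacnb2, Cacna1a, Cacna1c and Cacna1g were below 50% in both pools.

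Of the 28 detected genes, 17 had at least 99% of their TPM in coding transcripts in both pools, and 25 still had 1 TPM or more in both pools when only those were counted. Among the 17 were 8 genes with a single transcript model, a coding one, so their coding share was fixed by the annotation. Of the 20 detected genes with several transcripts, 18 had the same leading transcript by TPM in both pools, and all 20 did by estimated reads. With coding transcripts only, calcium genes held 20.3% of the summed TPM and potassium genes 59.8%, against 29.1% and 46.5% with all transcripts.

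Kcnj5 and Kcnj3 build the acetylcholine-gated potassium channel by which the vagus nerve slows the heart. Kcnj5 had 32.58 TPM in replicate 2 and 19.29 TPM in replicate 1. Kcnj3 had 3.79 TPM in replicate 2 and 2.14 TPM in replicate 1. Kcnj5 exceeded its partner by 3.14 ± 0.05 on the log2 TPM scale (SD, n = 2), one of the steadiest ratios of the 22 pairs compared. Kcnj2 and Kcnj12, the inward rectifiers that set the resting voltage of ventricular muscle, were far lower. Kcnj2 had 1.8 TPM in replicate 2 and 1.85 TPM in replicate 1, and Kcnj12 had 1.16 TPM in replicate 2 and 1.41 TPM in replicate 1.

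ATP-sensitive potassium channels join a pore, Kcnj11 or Kcnj8, with a sulfonylurea receptor such as Abcc9. Abcc9 (chr6:142587862-142702315) had 21 TPM in replicate 2 and 8.97 TPM in replicate 1. Kcnj11 had 3.97 TPM in replicate 2 and 2.30 TPM in replicate 1, and Kcnj8 had 0.70 TPM in replicate 2 and 1.29 TPM in replicate 1. Kcnj11 lay above Kcnj8 in both pools, but by unequal amounts, 2.50 on the log2 TPM scale in replicate 2 and 0.83 in replicate 1. That order was lost by estimated reads, with 117 for Kcnj11 and 40 for Kcnj8 in replicate 2, and 75 for Kcnj11 and 82 for Kcnj8 in replicate 1. Abcc9 exceeded Kcnj11 by 2.18 ± 0.31 on that scale (SD, n = 2). Kcnj8 and Abcc9 are neighbours on chromosome 6 with a gap of 16248 bp and no coding gene between them, and their log2 ratios of scaled counts between the pools had opposite signs, 1.33 for Abcc9 and -0.78 for Kcnj8. The deposited model of Kcnj11 spans 1173 nt, and its level is per that length.

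Abcc9 is known for alternative last exons that change the end of the receptor and its drug response. The transcript Abcc9-203 held 56.53% of the gene's TPM in replicate 2 and 63.53% in replicate 1, and Abcc9-202 held 43.47% in replicate 2 and 32.39% in replicate 1. Abcc9-204, annotated to end at the same position as Abcc9-203, held 0% in replicate 2 and 4.08% in replicate 1. Abcc9-203 and Abcc9-202 were both present in both pools, and Abcc9-203 led in each. Their last coding exons are shown because the pools differed in the mix of these ends; the capitals mark the stop codon, and 70 of 138 bases are the same in an ungapped comparison.
Abcc9-203 (chr6:142590369-142590503 and the stop codon, GRCm38, minus strand): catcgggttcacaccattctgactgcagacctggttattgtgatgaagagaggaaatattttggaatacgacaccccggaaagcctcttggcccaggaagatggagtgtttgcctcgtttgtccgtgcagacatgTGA
Abcc9-202 (chr6:142594008-142594142 and the stop codon, GRCm38, minus strand): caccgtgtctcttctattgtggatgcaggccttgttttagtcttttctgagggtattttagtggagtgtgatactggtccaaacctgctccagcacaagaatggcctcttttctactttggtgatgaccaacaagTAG

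The delayed rectifiers repolarise the action potential. Kcnh2, the rapid one, had 27.49 TPM in replicate 2 and 24.19 TPM in replicate 1. Kcnq1, the pore of the slow one, had 8.92 TPM in replicate 2 and 4.53 TPM in replicate 1. Kcne1, the single-pass subunit that slows Kcnq1 gating, had 46.37 TPM in replicate 2 and 17.62 TPM in replicate 1. Kcne1 exceeded Kcnq1 by 2.17 ± 0.30 and Kcnh2 exceeded Kcnq1 by 2.02 ± 0.56 on the log2 TPM scale (SD, n = 2 each). With coding transcripts only, Kcnh2 exceeded Kcnq1 by 1.52 ± 0.50 on that scale. By estimated reads, not divided by length, the ranges of Kcne1 and Kcnq1 overlapped, with a mean log2 ratio of 0.94. Of Kcne1, the 601-nt transcript Kcne1-202 held 77.26% of the TPM in replicate 2 and 73.14% in replicate 1. The long transcript Kcne1-201 held more of the estimated reads, 884 of 1377 in replicate 2 and 440 of 637 in replicate 1. Exons of Kcnq1 overlap the antisense RNA Kcnq1ot1, which held 9126 estimated reads in replicate 2 and 9970 in replicate 1, against 680.0 for Kcnq1 in replicate 2 and 352 in replicate 1, and without a stated strand rule these cannot be told apart in the shared bases.

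The main coding transcripts of Kcnh2 took different shares in the pools. The full-length Kcnh2-201 held 58.36% of the gene's TPM in replicate 2 and 39.44% in replicate 1, and the shorter Kcnh2-202, which starts further downstream, held 14.52% in replicate 2 and 29.34% in replicate 1. Kcnh2-201 led in both pools.

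The transient outward genes were low. Kcna5, the ultrarapid rectifier known from atrial muscle, had 7.92 TPM in replicate 2 and 10.64 TPM in replicate 1. Kcnd2, a transient outward pore, had 1.13 TPM in replicate 2 and 0.51 TPM in replicate 1. Kcnd3, the other such pore, had 0.40 TPM in replicate 2 and 0.48 TPM in replicate 1, and their partner Kcnip2 had 0.45 TPM in replicate 2 and 0.29 TPM in replicate 1. Kcnd2 lay above Kcnd3 in both pools by TPM, but their deposited intervals overlapped in each pool. By posterior mean TPM the order turned in replicate 1, with 0.50 for Kcnd2 and 0.84 for Kcnd3. Kcnk3, a background leak channel sensitive to acid, had 26.96 TPM in replicate 2 and 13.15 TPM in replicate 1. Kcnn2, a channel opened by internal calcium, had 4.89 TPM in replicate 2 and 3.79 TPM in replicate 1, of which coding transcripts held 2.95 TPM in replicate 2 and 1.97 TPM in replicate 1. In replicate 1 its noncoding transcript Kcnn2-204 led by TPM.

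Other genes of the set code for channels that respond to ions, metabolites or stretch. Trpm7, a magnesium-permeable channel fused to a kinase, had the highest mean TPM of the set, 40.90 TPM in replicate 2 and 34.09 TPM in replicate 1, although Cacna1c and Kcne1 exceeded it in replicate 2. Piezo1, a channel opened by membrane tension, had 19.31 TPM in replicate 2 and 24.50 TPM in replicate 1. Trpm4, a calcium-activated cation channel, had 7.23 TPM in replicate 2 and 6.07 TPM in replicate 1. Trpm7 exceeded Trpm4 by 2.49 ± 0.01 on the log2 TPM scale, and by 1.41 ± 0.14 with coding transcripts only (SD, n = 2 each). Coding transcripts held 20.58 TPM of Trpm7 in replicate 2 and 15.11 TPM in replicate 1, and 12.55 TPM of Piezo1 in replicate 2 and 10.29 TPM in replicate 1. By mean coding TPM, Trpm7 (17.8) lay below Kcne1 (32.0), Kcnj5 (25.9), Kcnk3 (20.1) and Kcnh2 (18.3). Piezo1 was therefore higher in replicate 1 by gene TPM and higher in replicate 2 by coding TPM. Its exons overlap those of Ctu2 on the opposite strand, which held 1606 estimated reads in replicate 2 and 2159 in replicate 1.

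Across the 22 pairs of related subunits, 16 had TPM ranges over the pools that did not overlap, and 18 pairs did so with coding transcripts only. The share for gene pairs in general was not computed, so these counts only describe the pairs chosen. The order did not always hold, since Cacnb2 lay above Cacnb1 with all transcripts and below it with coding ones. By gene TPM, 6 pairs overlapped. These were Scn8a with Scn3a, Scn4a with Scn3a, Scn4b with Scn2b, Cacnb2 with Cacnb3, Cacna2d1 with Cacna2d2, and Kcnip2 with Kcnd3. Of these, Cacnb2 with Cacnb3 and Kcnip2 with Kcnd3 did not overlap when only coding transcripts were counted.

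Between the pools, 8 of 35 genes with a mean of 50 or more reads differed by at least 2-fold in TMM-scaled counts with deposited TPM intervals that did not overlap. Over all mouse genes 7.07% met the same rule. Higher in replicate 2 were 6 of 35 genes, beside 2.31% of all genes, and higher in replicate 1 were 2 of 35, beside 4.76% of all genes. The 6 higher in replicate 2 were Kcne1 (log2 ratio 1.36), Abcc9 (1.33), Kcnd2 (1.25), Kcnq1 (1.20), Kcnk3 (1.13) and Cacna1c (1.07), of which 5 are potassium genes. The 2 higher in replicate 1 were the auxiliary genes Scn2b (-1.11) and Cacnb3 (-1.10). Scn3b (-1.90) and Scn3a (-1.51) passed 2-fold with overlapping intervals, and Scn4a (1.18) and Kcnip2 (1.11) did so on a mean of under 50 reads, so none of these 4 was counted. Kcnq1 and Cacna1c did not reach 2-fold in the ratio of deposited TPM, and Scn2b and Cacnb3 did not reach it with spike-in scaling, which moved the median of all genes by 0.32 on the log2 scale. With spike-in scaling, 11 of 35 were higher in replicate 2, beside 6.09% of all genes, and 0 of 35 were higher in replicate 1, beside 3.09%. By deposited TPM, 4 of 35 were higher in replicate 2, beside 1.7% of all genes, and 2 of 35 were higher in replicate 1, beside 5.4%. At 1.5-fold, 14 of 35 were higher in replicate 2, beside 7.73% of all genes, and 3 of 35 were higher in replicate 1, beside 8.62%.

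**Figure D3:**
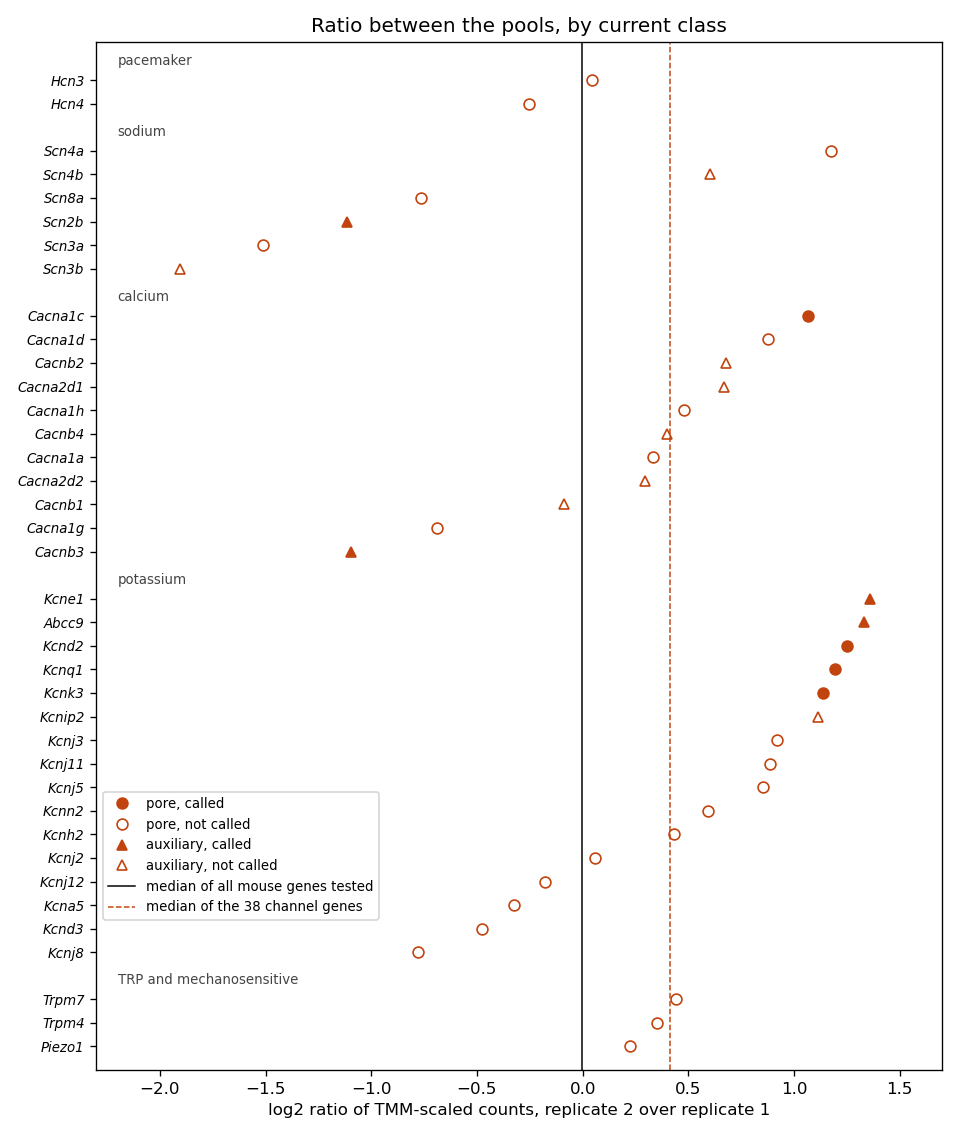
Log2 ratio of TMM-scaled counts, replicate 2 over replicate 1, for the 38 channel genes with a mean of 10 or more reads, by current class; circles are pores, triangles auxiliary subunits, and filled symbols passed the rule on size and intervals. Potassium genes lie mostly to the right of the line at the median of all mouse genes, and Scn2b and Cacnb3 are the filled symbols to its left.

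Over the 38 genes with a mean of 10 or more reads, the median log2 ratio was 0.41 and 26 were higher in replicate 2. Over all 17547 mouse genes with that mean it was -0.01, and 49.5% were higher in replicate 2. By class the median was 0.87 for 16 potassium genes, of which 12 were higher in replicate 2, and 0.40 for 11 calcium genes, of which 8 were. It was 0.35 for the 3 TRP and mechanosensitive genes and -0.94 for the 6 sodium genes, of which 2 were higher in replicate 2. The sodium median rests mostly on genes near the floor. Of those 6 genes, 4 (Scn4a, Scn3a, Scn8a and Scn3b) stayed below 1 TPM in both pools with overlapping deposited intervals. Pores (0.39, 26 genes) and auxiliary subunits (0.50, 12 genes) had medians close to each other. The sign for single genes near 0 depended on the scaling: Hcn4, Cacnb1 and Kcnj12 were lower in replicate 2 with TMM and higher with spike-in scaling, and Kcnj2 and Piezo1 were higher with TMM and lower by deposited TPM.

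Markers of cell types also differed between the pools. Reaching 1 TPM in both pools, as all 20 heart muscle markers did, does not by itself tell the tissue. The 8 endothelial, 8 red cell and 8 conduction and sinus node markers all reached it too. All 20 heart muscle markers, led by Actc1 and Myl7 of the contractile apparatus, were higher in replicate 2. Their median log2 ratio was 0.89, with summed levels of 52931 TPM in replicate 2 and 31524 TPM in replicate 1. All 12 liver markers were lower in replicate 2, with a median of -4.51, and summed to 82.6 TPM in replicate 2 and 1619 TPM in replicate 1; Afp, the fetal serum protein, had 27.61 TPM in replicate 2 and 737 TPM in replicate 1. Neural markers had a median of -1.23 over 11 genes, and skeletal muscle markers -1.37 over 5 genes. Endothelial markers had a median of 0.56 with 7 of 8 higher in replicate 2, red cell markers 0.36 with 8 of 8, and smooth muscle and pericyte markers 0.36 with 5 of 9. No marker of any list was at 0 in both pools. The part of these differences in the channel ratios was not tested.

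**Figure D4:**
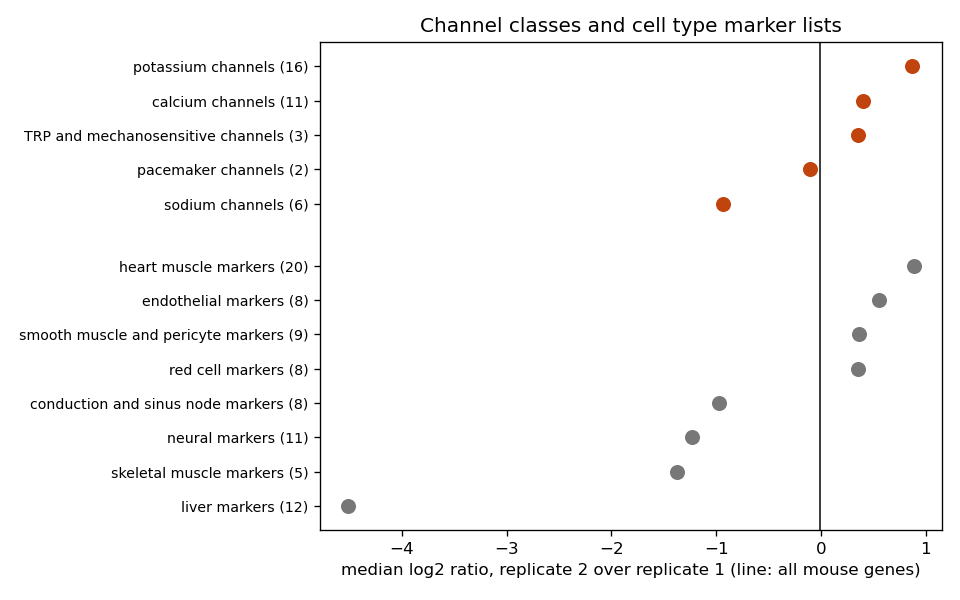
Median log2 ratio of TMM-scaled counts, replicate 2 over replicate 1, for each channel class (upper points) and each list of cell type markers (lower points), with the number of genes in brackets and a line at the median of all mouse genes. Potassium channels (0.87) and heart muscle markers (0.89) lie at the right, and liver markers (-4.51) lie farthest to the left.

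Markers of the conduction system and sinus node did not move as one. They summed to 196 TPM in replicate 2 and 216 TPM in replicate 1, with 2 of 8 higher in replicate 2 and a median log2 ratio of -0.97. Without Gja5 the other 7 summed to 84.0 TPM in replicate 2 and 169 TPM in replicate 1. Gja5, a gap junction gene of atrial and conduction cells, had 112 TPM in replicate 2 and 47.19 TPM in replicate 1. Bmp4, a growth factor, had 27.22 TPM in replicate 2 and 55.57 TPM in replicate 1. Isl1, a regulator of venous pole progenitors and of neurons that stands in both of those lists, had 5.94 TPM in replicate 2 and 22.67 TPM in replicate 1. Beside these, Hcn4 had a log2 ratio of -0.25 with TMM scaling.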

How the data were processed

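Total RNA of 2 pools of embryonic hearts was read from the deposited gene and transcript tables, 1 pair per library. The authors deposited expected counts (estimated reads, not normalised), TPM and FPKM (scaled for length and depth), posterior mean TPM, bounds of an interval of TPM (used as a score; they describe the posterior mean, so a TPM can lie outside them) and the percent of a gene's TPM in each transcript, per the file headers. Reads were assigned on mm10 with annotation M4, per the deposited description. The program, its version and its strand rule are not stated in those sources. Gene names, positions and transcript types came from GENCODE M21 (GRCm38, the same build), which matched 42462 of 43346 Ensembl genes and all 39 channel genes.

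TMM scaling factors were computed from rounded expected counts (edgeR 4.0.16, R 4.3.3). The log2 ratio of replicate 2 over replicate 1 used unrounded expected counts divided by these factors, with a prior count of 0.5. The rule for a called gene was a mean of at least 50 counts, a change of 2-fold or more, and deposited intervals with no overlap. A gene with 3 or fewer counts in both pools was called not detected. Alternatives covered thresholds, DESeq2 1.42.0 size factors, spike-in scaling, deposited TPM, FPKM, expected counts and each pool alone; counting coding transcripts only was added after the data were seen. The 39 genes, the pairs and the marker lists were chosen with earlier results of these data known. Named were all 39 genes, the 10 other channel genes and at most the 2 genes of each marker list with the highest mean TPM, except that 1 of these other channel genes is not reported here. Pools count as 2 replicates of 1 group.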

Additional observations from a re-analysis of the deposited data

How the results depend on the processing

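Detection held within 1.5 times of 28 genes in all settings tried (23 at 2 TPM to 38 at 10 reads). The pore share was 74.5% by expected counts and 65.7% by coding transcripts; counting coding transcripts also gave 20.3% for calcium, 59.8% for potassium and 15.6% for TRP and mechanosensitive genes. The median log2 ratio of the channel genes was 0.22 by deposited TPM and 0.74 with spike-in scaling, and changes over 0.1 were counted as moved. Genes higher in replicate 2 numbered 14 of 35 at 1.5-fold (7.73% of all genes) and 11 of 35 with spike-in scaling (6.09%), which left 0 of 35 higher in replicate 1 (3.09%). Other channel genes detected numbered 36 at 0.5 TPM and 63 at 10 reads. The cause of these shifts was not tested, beyond the looser thresholds. No called value changed sign, but Cacnb2 over Cacnb1 did, from 0.97 with all transcripts to -2.32 with coding ones. No paired analysis was possible because there is 1 group. With 2 pools an SD is a rough guide, and intervals cover counting error only, since no molecular identifiers are described.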

Other observations

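Beyond the 39 genes, the tables held 110 protein-coding genes whose symbols place them in the same channel families, and 22 of them (20.0%) reached 1 TPM in both pools. Among those with the highest mean TPM were Kcne1l, Kcng2, Cacng6, Kcnn4, Kcnmb1, Kcnh7, Kcnq5, Kcnmb4 and Kcnk5. Kcne1l, a relative of Kcne1, had 33.98 TPM in replicate 2 and 22.11 TPM in replicate 1. Kcng2, a modifying potassium subunit, had 18.62 TPM in replicate 2 and 9.79 TPM in replicate 1. Cacng6, a gamma subunit of calcium channels, had 20.13 TPM in replicate 2 and 8.00 TPM in replicate 1. Cacng6 (log2 ratio 1.41) was among 4 of 40 such genes that passed the same rule on size and intervals as higher in replicate 2, beside 2.31% of all genes; 3 of 40 passed it as higher in replicate 1, beside 4.76%. The median log2 ratio of 73 of these genes was 0.06, with 37 higher in replicate 2.

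Hcn3 and Kcnd3 also carried noncoding transcript models, and with coding transcripts only Hcn3 had 0.36 TPM in replicate 2 and 0.41 TPM in replicate 1.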
